A study of Mus musculus with 46 samples.

Results

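The genes described here encode the proteins of the mitochondrial ribosome, chosen as every listed gene whose symbol is Mrpl or Mrps followed by a number. The rule found 78 genes in each of the study's 4 tables, which list 24537 genes for experiments 1 and 3 and 25124 for experiments 2 and 4. By protein, 51 belong to the large subunit and 26 to the small subunit; Mrps30 and Mrps18a are counted with the large subunit, where their proteins sit despite the names. Mrps36 is the remaining gene, and its product is now placed in the 2-oxoglutarate dehydrogenase complex.

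The mitochondrial ribosome is a ribosome of bacterial descent that translates the few messages encoded in mitochondrial DNA, all of them core subunits of the respiratory chain and ATP synthase. Its RNAs come from mitochondrial DNA, but all its proteins are encoded in the nucleus, made in the cytosol and imported. Some have bacterial counterparts and bind the conserved core, and others were gained in the mitochondrial lineage. Macrophages that sense bacterial lipopolysaccharide (LPS) or its lipid A part through Toll-like receptor 4 are known to shift from respiration towards glycolysis.

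All libraries were stranded polyA RNA-seq of mouse bone marrow-derived macrophages. In experiment 1, WT cells were sampled at 0 hr and after 1 or 4 hr with lipid A, and the 4 hr stimulus was also given in the presence of ACBI1, BRM014 or BRDK98. In experiment 2, Arid1a f/f cells were sampled at 0 hr and after 1 or 4 hr with LPS, with Arid1a-/- cells at the later times only. In experiment 3, Pbrm1 f/f cells were sampled at 0 hr and after 4 hr with lipid A, with Pbrm1-/- cells at 4 hr only. In experiment 4, WT cells were sampled at 0 min and after 20 or 60 min with lipid A, and each of the 3 compounds was combined with the 20 and 60 min stimulus. Arid1a and Pbrm1 are subunits that define forms of the SWI/SNF chromatin remodelling complex. ACBI1 directs the ATPase subunits of that complex, and Pbrm1, to degradation, BRM014 blocks ATPase activity, and BRDK98 is named after an inhibitor of the complex. Doses, pretreatment times, and the age and sex of the animals were not given in the sources used here, nor was the means of gene deletion.

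Each of the 23 groups had 2 labelled libraries, and 45 of the 46 were used, because the second column of the 4 hr control of experiment 1 repeated the first. That control therefore counted as 1 library, which the 4 hr stimulus comparison and all 3 compound comparisons of experiment 1 share. Reads recovered over exons numbered 7015041 to 27527067 per library. All 7 macrophage markers were at 1 TPM (reads per transcript length, scaled to the library's total) or more in the median library. Granulocyte markers summed to 6.54 to 52.8 TPM in experiment 1 and 8.25 to 39.9 in experiment 2, but to 314 to 524 in experiment 3 and 277 to 517 in experiment 4; lymphocyte markers never summed above 1.49 TPM. Stromal markers summed to 144 TPM, led by Col1a1 at 56.2, in the first 1 hr control library of experiment 1, and to at most 4.96 in every other library. The labels do not say whether the libraries of a group came from separate animals or cultures, so p-values measure the spread between these libraries, which may be technical. In such bulk samples fewer cells of a type and less RNA per cell cannot be told apart.

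A pair of groups held libraries that stood apart. Across the members, the first Arid1a-/- library at 1 hr exceeded the second by a median of 0.31 on the log2 scale, and the first BRM014 library at 60 min exceeded the second by 0.40, whereas the other groups' libraries differed by at most 0.10 in either direction. Arid1a itself was at 7.17 and 13.2 TPM in the Arid1a-/- libraries at 1 hr against 18.3 and 17.3 in their controls. At 4 hr it was at 25.4 and 26.1 TPM in Arid1a-/- against 35.2 and 41.9, so much transcript remained. Pbrm1 was at 4.54 and 5.03 TPM in Pbrm1-/- cells against 15.6 and 14.7 in controls. The labels of the 1 hr libraries of experiment 2 name polyA RNA where those of 0 and 4 hr name total RNA, so time and this difference cannot be told apart in the 1 hr LPS comparison.

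TPM are shares of a total, and stimulation moved that total's make-up. Between 0 and 4 hr of experiment 1, the median of all 11531 tested genes shifted by -0.84 on log2(TPM + 1) and by -0.24 after each library was scaled by its median ratio to a common reference. A gene is therefore called here only when limma gave an adjusted p below 0.05, with the same sign, on both scales. Changes are log2 differences of median-scaled TPM + 1 with their standard errors, and adjusted p-values are those on that scale, unless another scale is named. A pseudocount of 1 understates the change of low genes. Of the 78 members, 76 passed the filter (1 TPM in 2 libraries) in experiments 1 to 3 and 77 in experiment 4. Mrpl23 never passed, and Mrps36 passed only in experiment 4, at 1.00 to 3.07 TPM.

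Promoters were available from RefSeq (GRCm38.p6) for 69 members, and the one nearest the listed start was taken. For 67 members its start lay within 100 bp of the listed one. For Mrps10 and Mrps23 it lay 310 and 10282 bp away, and the Mrps23 window, counted below, held an ETS match. Each window held 300 bases, 250 before the start and 50 from it on, and 5 motifs were searched on both strands. The ETS letters CCGGAAG, the core bound by the GABP factor that drives many nuclear genes for mitochondrial proteins, were in 24 of the 69 windows (34.8%), against 19.4% of 9552 tested genes and 8.86% of all promoters in the table. The NRF1 letters, GCGCA, then any base, then GCGC, were in 13 (18.8% against 10.9% and 4.60%), and the YY1 letters AAGATGGCG in 8 (11.6% against 3.44% and 1.40%). The E-box CACGTG was in 5 (7.25% against 10.2% and 7.15%) and the AP-1 letters TGANTCA in 3 (4.35% against 5.28% and 7.81%). At least 1 of the first 3 motifs stood in 39 windows (56.5%), against 30.2% of the tested genes.

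These 4 members recur in the results below: Mrpl43 and Mrpl44 fell within 1 hr in 3 experiments, Mrps26 fell furthest at 4 hr in experiment 1, and Mrpl52 rose at 4 hr in 3 experiments. Each line gives 120 bases before and 30 from the start on, 5′ to 3′, with matches to the 5 motifs in capitals: ETS in Mrpl43, Mrpl52 and Mrps26 (read as CTTCCGG where it lies on the other strand), NRF1 in Mrpl44, and 2 overlapping NRF1 matches in Mrps26.
Mrpl43 (chr19:45006413-45006562, minus strand): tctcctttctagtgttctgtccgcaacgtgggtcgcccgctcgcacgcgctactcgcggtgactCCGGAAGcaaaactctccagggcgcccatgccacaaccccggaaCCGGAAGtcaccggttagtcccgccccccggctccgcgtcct
Mrpl44 (chr1:79775898-79776047, plus strand): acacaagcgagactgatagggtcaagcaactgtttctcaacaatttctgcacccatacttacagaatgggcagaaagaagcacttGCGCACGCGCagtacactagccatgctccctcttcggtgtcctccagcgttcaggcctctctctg
Mrps26 (chr2:130563637-130563786, plus strand): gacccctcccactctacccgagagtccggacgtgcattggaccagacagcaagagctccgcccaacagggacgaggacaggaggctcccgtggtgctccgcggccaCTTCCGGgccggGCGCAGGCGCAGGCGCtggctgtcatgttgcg
Mrpl52 (chr14:54426789-54426938, plus strand): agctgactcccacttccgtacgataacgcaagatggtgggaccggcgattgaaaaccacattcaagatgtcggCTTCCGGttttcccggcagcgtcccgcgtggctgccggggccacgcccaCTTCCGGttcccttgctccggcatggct
A match is a description of letters only. The same stretch of Mrpl49, Mrps25, Mrpl39 and Mrps6, which also recur below, held no whole match. Upstream of it, an NRF1 match began at -125 from the start in Mrpl39 and an AP-1 match at -191 in Mrps25. The whole windows of Mrpl49 and Mrps6 held none of the 5 motifs. ETS matches were in 6 of the 15 windows of members lower at 4 hr in experiments 1, 2 and 3 and in 18 of the other 54. NRF1 matches were in 2 and 11 of these windows, and YY1 matches in 2 and 6. At least 1 of the 3 motifs was in 7 and 32 (46.7% and 59.3%).

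The first question was how the family moves when macrophages are stimulated. At 4 hr of lipid A in experiment 1, 40 of 76 members fell and 5 rose, against 43.2% of all tested genes called lower and 20.1% called higher; the share that fell was 52.6%. The members' median change was -0.45, and -1.07 on TPM as deposited. In Pbrm1 f/f cells at 4 hr of lipid A, 24 of 76 members fell and 1 rose (37.0% and 16.0% of all tested genes), with a median of -0.26 against -0.18 for all genes; without the second 0 hr library 14 were called. In Arid1a f/f cells at 4 hr of LPS, 22 of 76 fell and 5 rose (39.0% and 17.9% of all tested genes), with a median of -0.06 against -0.12. The shares of members that fell in the f/f cells were thus at or below those of all genes. On TPM as deposited the counts in Arid1a f/f cells were 51 lower and 5 higher (62.8% and 17.9% of all tested genes), and on median-scaled TPM 22 lower and 19 higher (39.0% and 30.9%), so lower calls led on both scales while their lead rested on the scale.

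The summed TPM of all members shows the same dependence. In experiment 1 it was 2109 and 2120 at 0 hr, 1487 and 1460 at 1 hr and 1251 in the single library at 4 hr, with no overlap between times. After median scaling the sums were 1660 and 1721, 1516 and 1580, and 1701, so the 4 hr library then lay between the 2 libraries at 0 hr. In Arid1a f/f cells the deposited sums fell from 2243 and 2308 at 0 hr to 1643 and 1699 at 4 hr. The scaled sums there rose, from 1870 and 1918 to 2097 and 2151. Scaled sums also rose in experiment 4, from 1412.5 and 1455 at rest to 1571 and 1531 at 60 min. In Pbrm1 f/f cells they overlapped, at 1325 and 1444 at 0 hr and 1287 and 1397 at 4 hr. Sums are weighted towards high members, among them Mrpl52, which rose. Before scaling, Mrpl52 went from 74.0 and 73.3 TPM at 0 hr to 165 at 4 hr in experiment 1. In Arid1a f/f cells it went from 25.1 and 34.3 to 142 and 163, and in Pbrm1 f/f cells from 52.3 and 73.9 to 118 and 136. Sums without Mrpl52 were not made, so the scaled sums do not show that most members held their level or rose.

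**Figure D1:**
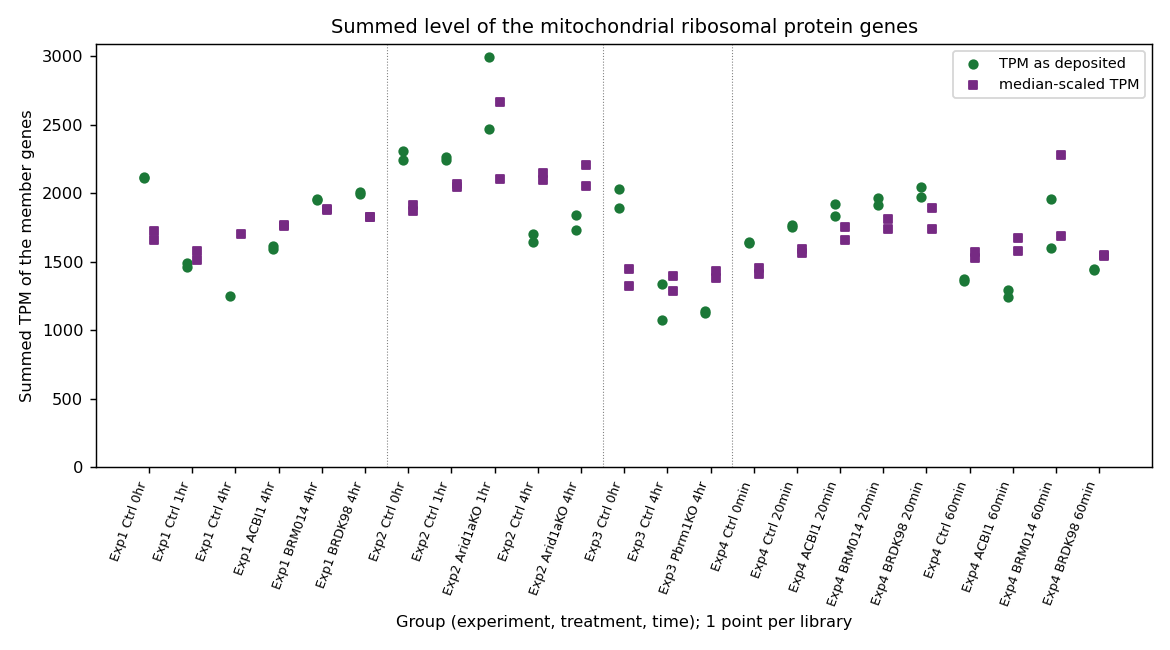
Summed TPM of the 78 member genes (vertical axis, from 0) in each library, by group; circles are TPM as deposited and squares are median-scaled TPM, with dotted lines between experiments. The deposited sums of controls fell by 4 hr, from 2109 and 2120 to 1251 in experiment 1. The scaled sums at 0 and 4 hr lay together in experiment 1 (1660, 1721 and 1701). In Arid1a f/f cells the scaled sums rose, from 1870 and 1918 to 2097 and 2151. All sums include Mrpl52, a high member that rose at 4 hr.

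The experiments shared many of the members that fell, as they did over all genes. The comparisons of experiments 1, 2 and 3 use separate libraries, and 17 members were called lower at 4 hr in all 3 of them: Mrpl2, Mrpl10, Mrpl28, Mrpl34, Mrpl38, Mrpl40, Mrpl41, Mrpl42, Mrpl43, Mrpl49, Mrpl50, Mrpl57, Mrpl58, Mrps25, Mrps26, Mrps27 and Mrps35. All 24 members that fell in Pbrm1 f/f cells also fell in experiment 1, where they were 60% of those that fell. Of the 22 that fell in Arid1a f/f cells, 19 (86.4%) fell in experiment 1, where they were 47.5%. Over the 10531 genes tested in all 3 experiments 28% were called lower in each, against 22.4% of members. Of all genes that fell in Pbrm1 f/f cells 87.9% fell in experiment 1, and of those that fell in Arid1a f/f cells 80.6% did. Across the 76 members the changes in the Arid1a f/f and Pbrm1 f/f experiments correlated with r = 0.84 (Spearman 0.80); across 10581 genes r was 0.91. Genes are not independent replicates, and the points share the stimulus and the way the libraries were made.

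**Figure D2:**
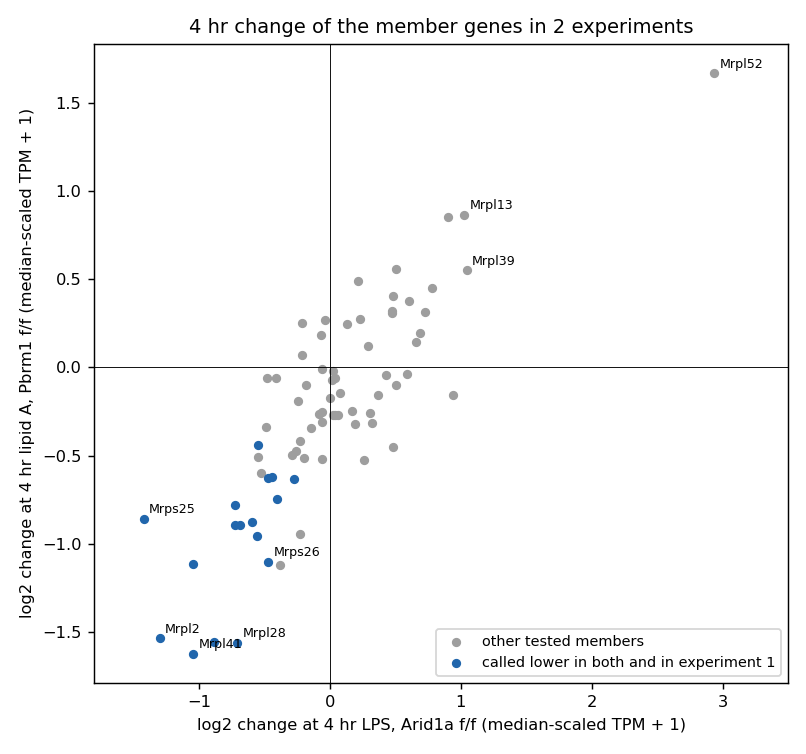
Log2 change of each of 76 members at 4 hr against 0 hr in Arid1a f/f cells given LPS (horizontal axis) and Pbrm1 f/f cells given lipid A (vertical axis), on median-scaled TPM + 1. Blue points are the 17 members called lower in both and in experiment 1; Mrpl52 stands alone at the upper right, at 2.93 and 1.67.

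Among the core proteins with bacterial counterparts, Mrpl2, a large subunit protein at the peptidyl transferase centre, was at 31.7 and 43.1 TPM at 0 hr, 26.5 and 21.3 at 1 hr and 6.01 at 4 hr of experiment 1. In Arid1a f/f cells it went from 39.7 and 38.9 to 9.12 and 11.0 TPM (-1.30 ± 0.15, adjusted p = 2.30e-05), and in Pbrm1 f/f cells from 30.2 and 34.5 to 5.55 and 7.43. Every 4 hr control library lay below every resting library of its experiment. Mrpl28, also a large subunit protein with a bacterial counterpart, went from 50.8 and 59.0 to 8.81 and 14.0 TPM in Pbrm1 f/f cells (-1.56 ± 0.18, adjusted p = 0.000267). Mrpl34, another of this kind, went there from 28.5 and 38.9 to 4.84 and 8.86 TPM (-1.55 ± 0.24, adjusted p = 0.000934). Mrps16, a small subunit protein, fell in experiment 1 from 41.1 and 35.4 to 5.76 TPM (-1.84), with 18 recovered reads at 4 hr. It was at 36.9 and 37.9 TPM at 0 hr and 22.4 and 18.5 at 4 hr in Arid1a f/f cells, and it is not among the 17.

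Among the proteins without bacterial counterparts, Mrps26 had the lowest change in experiment 1, from 19.9 and 26.2 TPM at 0 hr to 2.63 at 4 hr (-2.08 ± 0.21, adjusted p = 7.32e-06); the 4 hr value rests on 14 recovered reads. Mrps26 in Arid1a f/f cells went from 22.4 and 24.6 to 10.3 and 11.4 TPM. Mrpl41 had the lowest change in Pbrm1 f/f cells, from 9.70 and 10.6 to 0.899 and 2.28 TPM (-1.62 ± 0.27, adjusted p = 0.00157); its 4 hr libraries lay far apart. Mrps25 had the lowest change in Arid1a f/f cells, from 14.3 and 15.9 to 3.57 and 2.87 TPM (-1.42 ± 0.13, adjusted p = 3.21e-06). Of the exon sequence of Mrps25, 75.6% is shared with Nr2c2 on the opposite strand, and reads were counted on both strands, so reads of the 2 genes cannot be told apart there. In all, 29 members share exon sequence with another annotated gene. In experiment 1 at 4 hr 19 of 29 such members fell, and 21 of the 47 tested members with no overlap.

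Mrpl12, a large subunit protein also known to bind the mitochondrial RNA polymerase, fell at 4 hr in experiment 1 (36.5 and 40.0 to 11.6 TPM) and in Pbrm1 f/f cells (26.9 and 34.0 to 7.99 and 11.2). In Arid1a f/f cells it was at 42.4 and 45.1 TPM at 0 hr and 25.6 and 23.1 at 4 hr, and was not called on both scales. The Mrps18 paralogs, of which only Mrps18c is counted here as having a bacterial counterpart, differed in level. At 0 hr of experiment 1 Mrps18a was at 45.5 and 38.4 TPM and Mrps18c at 44.6 and 52.4, but Mrps18b at 4.57 and 4.62.

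Calls were made at 1 hr for some members and at 20 min for none. At 20 min of lipid A in experiment 4, no member of 77 was called by limma in either direction (0.736% of all tested genes were called higher and 0.364% lower), and 12 members had an unadjusted p below 0.05 on both scales. The latter count was not set against the share of all tested genes at that threshold, and no response of the family is read from it. At 60 min 11 fell and 2 rose (19.1% and 7.47% of all tested genes). At 1 hr of lipid A in experiment 1, 25 of 76 fell and 1 rose (22.3% and 9.90%; 19 and 1 without the first 1 hr library, which held the stromal markers), and at 1 hr of LPS in Arid1a f/f cells 7 fell and 7 rose (21.6% and 13.6%). These 3 comparisons use separate libraries, and 4 members fell in all of them: Mrpl43, Mrpl44, Mrpl49 and Mrps25. Only Mrpl39 rose in all 3. These names follow from the counts and were chosen after their values were seen. Over the 10706 genes tested in all 3 comparisons, 10.7% fell in each, against 5.26% of members. The shares that rose in each were 5.45% of genes and 1.32% of members, so such recurrence was less frequent among members. In Arid1a f/f cells 7 calls in all were left at 1 hr without the first 0 hr library, and 7 without either 1 hr library.

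Mrpl44, a large subunit protein related to ribonuclease III, fell the furthest. In experiment 4 it was at 19.5 and 20.5 TPM at rest, 19.2 and 16.6 at 20 min and 7.03 and 6.05 at 60 min (-1.13 ± 0.13, adjusted p = 1.27e-05). In experiment 1 it went from 21.0 and 23.2 TPM to 5.74 and 4.16 at 1 hr (-1.60 ± 0.14, adjusted p = 8.89e-06), and stood at 7.84 at 4 hr. In Arid1a f/f cells it went from 29.1 and 28.3 to 15.4 and 14.3 TPM at 1 hr (-0.78 ± 0.14, adjusted p = 0.00180) and was at 19.3 and 20.1 at 4 hr. The 1 hr libraries lay below both the resting and the 4 hr libraries in experiments 1 and 2. Mrpl44 shares 8.85% of its exon sequence with Wdfy1 on the opposite strand.

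Mrpl43 and Mrpl49 are large subunit proteins without bacterial counterparts. Mrpl43 was at 33.2 and 33.5 TPM at 20 min and 14.5 and 15.1 at 60 min of experiment 4, and at 38.1 and 39.8 TPM at 0 hr, 16.7 and 14.7 at 1 hr and 16.0 at 4 hr of experiment 1. It shares 27.5% of its exon sequence with Twnk, the mitochondrial DNA helicase, on the opposite strand. Mrpl49 went from 17.6 and 17.7 TPM at 0 hr to 6.88 and 5.76 at 1 hr in experiment 1 (-0.99 ± 0.14, adjusted p = 0.000320) and to 4.39 at 4 hr. On TPM as deposited, unlike Mrpl44, neither showed a higher level at 4 hr than at 1 hr in all its libraries. Mrps2, a small subunit protein with a bacterial counterpart, fell at 1 hr of experiment 1 (17.6 and 16.1 to 6.87 and 5.73 TPM) and at 60 min of experiment 4 (14.4 and 15.6 to 6.37 and 6.54), and in Arid1a f/f cells it was at 13.1 and 13.7 TPM at rest and 9.66 and 9.16 at 1 hr.

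**Figure D3:**
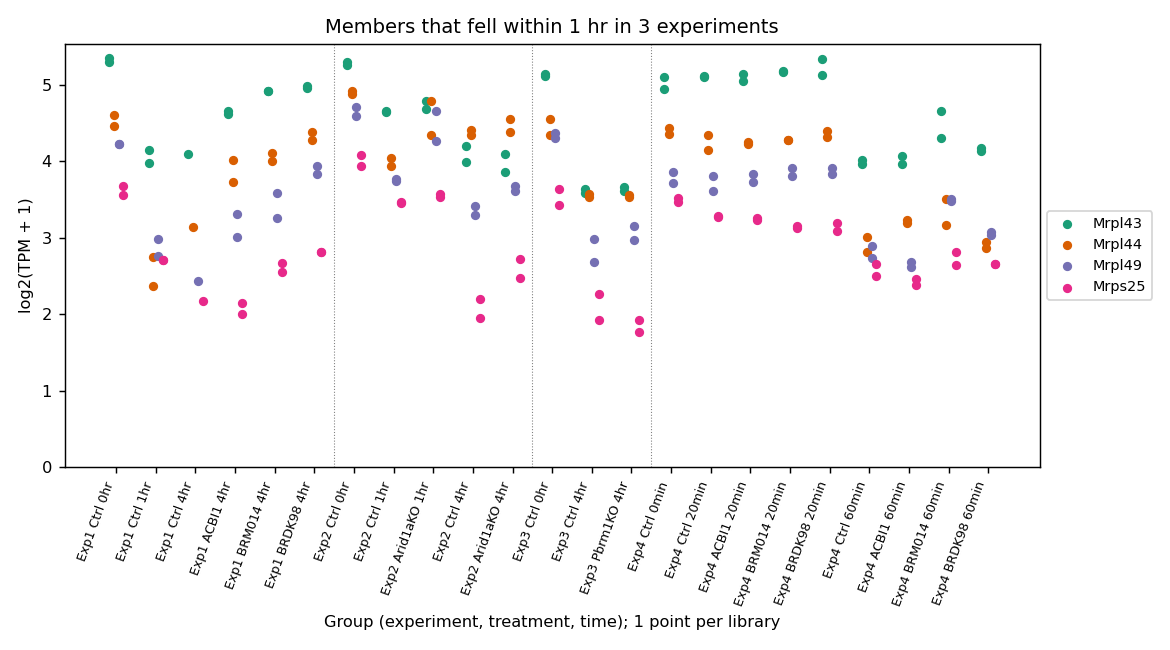
log2(TPM + 1), as deposited, of Mrpl43, Mrpl44, Mrpl49 and Mrps25 in every library, by group, 1 point per library, with dotted lines between experiments. In experiment 4 all 4 genes are lower at 60 min than at rest or 20 min (Mrpl44: 19.5 and 20.5 TPM at rest, 7.03 and 6.05 at 60 min).

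A few members went the other way. Mrpl52, a small large-subunit protein of the mitochondrial lineage, was the only member that rose at 4 hr in experiments 1, 2 and 3. In Arid1a f/f cells it was at 25.1 and 34.3 TPM at 0 hr, 75.2 and 81.9 at 1 hr and 142 and 163 at 4 hr (2.93 ± 0.15, adjusted p = 4.69e-08). In experiment 1 it was at 74.0 and 73.3 TPM, then 92.5 and 92.8, then 165 TPM (1.91 ± 0.19, adjusted p = 9.56e-06), and in Pbrm1 f/f cells it went from 52.3 and 73.9 to 118 and 136. No libraries of different times overlapped. The gene next to it, Mmp14, a membrane-bound matrix metalloproteinase, lies 1848 bp downstream on the same strand and was looked at after the values of Mrpl52 were seen. Mmp14 was at 0.164 and 0.266 TPM at 0 hr, 3.63 and 3.52 at 1 hr and 75.6 and 75.9 at 4 hr in Arid1a f/f cells, and at 6.71 and 8.58, then 41.2 and 20.3, then 162 TPM in experiment 1. The annotation gives the 2 genes no shared exon; the part of Mmp14 transcription in the value of Mrpl52 was not tested.

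Mrpl39, a large subunit protein related to threonyl-tRNA synthetase, was at 23.0 and 18.8 TPM at 0 hr of experiment 1 and 35.0 and 34.3 at 1 hr (1.09 ± 0.11, adjusted p = 2.30e-05). It went from 19.9 and 18.7 to 34.7 and 33.1 TPM at 1 hr in Arid1a f/f cells (0.90 ± 0.09, adjusted p = 4.19e-05), and from 18.1 and 13.5 to 19.7 and 19.7 at 60 min in experiment 4 (0.67 ± 0.10, adjusted p = 9.55e-05). On deposited TPM the last change was 0.31, and the libraries did not overlap. That last call was lost without the second resting library or without either 60 min library (0.49, 0.64 and 0.70). Its 3′ neighbour, 2336 bp away on the opposite strand, is Mir155hg, host of the inflammatory microRNA miR-155, which was at 0 and 0.383 TPM at 0 hr and 136 and 113 at 1 hr of experiment 1. This neighbour too was looked at after the values were seen, and its part in the level of Mrpl39 was not tested. Mrpl13 and Mrpl32, large subunit proteins with bacterial counterparts, rose at 4 hr of experiment 1 from 41.9 and 33.5 to 64.6 TPM and from 26.8 and 19.8 to 44.2. Mrpl13 also rose in Arid1a f/f cells (46.4 and 50.0 to 64.8 and 65.4 TPM), a call lost without the first 0 hr library. Mrpl32 was at 27.8 and 28.6 TPM at rest there and 21.4 and 21.7 at 4 hr, and was not called on both scales.

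The next question was whether SWI/SNF compounds change these genes in cells given lipid A for 4 hr. Against the single control library, BRM014 raised 38 of 76 members and lowered 3 (29.3% and 16.4% of all tested genes), BRDK98 raised 37 and lowered 1 (24.7% and 12.4%), and ACBI1 raised 29 and lowered 1 (22.3% and 13.5%). The shares of members that rose were 50.0%, 48.7% and 38.2%. The control arm has no spread of its own, and the fit assumes that it varies like the replicated groups. With voom on recovered reads the calls in either direction numbered 30 for BRM014, 21 for BRDK98 and 13 for ACBI1. The members' median change was 0.44 for BRM014, 0.40 for BRDK98 and 0.30 for ACBI1, against 0.06, 0.03 and 0.03 for all genes. Of the 71 tested proteins of the cytosolic ribosome 20, 23 and 17 rose, and of 78 subunits of oxidative phosphorylation 22, 21 and 16, in the same order of compounds. The summed deposited TPM was 1951 and 1956 with BRM014, 2007 and 1996 with BRDK98 and 1613 and 1596 with ACBI1, against 1251 in the control. After median scaling the gap between the sums was much smaller. The scaled sums were 1875 and 1888 with BRM014, 1830 and 1827 with BRDK98 and 1769 and 1763 with ACBI1, against 1701 in the control. These sums include Mrpl52, which fell with BRM014 and BRDK98. Before scaling, Mrpl52 was at 165 TPM in the control, 56.2 and 49.0 with BRM014, 32.4 and 21.3 with BRDK98 and 151 and 160 with ACBI1. Sums without Mrpl52 were not made, so the smaller gap does not describe most members. The 3 comparisons share that control, and it is also the 4 hr library of the stimulus comparison, so any deviation of this library enters all 4 with the same size. Dendritic cell markers summed to 9.67 and 9.81 TPM with BRM014 at 4 hr, of which Xcr1 made up 9.18 and 9.11, and to at most 2.70 in every library of every other group; their part in these results was not tested.

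Membership of the falling set can be taken from experiments 2 and 3, which share no library with experiment 1. Of the 17 members that fell at 4 hr in both, 12 rose with BRM014, 12 with BRDK98 and 7 with ACBI1, and none was lower. Of the other 59 tested members 26, 25 and 22 rose. The median changes of the 17 were 0.57, 0.56 and 0.35, and those of the other 59 were 0.31, 0.30 and 0.29. The same split was not made over all genes, so this difference is not shown to be particular to the members.

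Among single members, Mrps26 was at 2.63 TPM in the control, 7.36 and 7.27 with ACBI1, 7.76 and 8.57 with BRM014 and 23.7 and 16.8 with BRDK98 (2.07 ± 0.21 for BRDK98, adjusted p = 2.65e-05). Mrps16 was at 5.76 TPM in the control, 16.6 and 15.6 with ACBI1, 18.04 and 20.05 with BRM014 and 26.3 and 26.9 with BRDK98. Mrpl58, the peptidyl-tRNA hydrolase built into the large subunit, was at 5.93 TPM in the control, from 24 recovered reads. It was at 10.3 and 11.0 with ACBI1, 20.2 and 18.9 with BRM014 and 27.9 and 25.2 with BRDK98 (1.48 for BRDK98). For these 3 genes the BRDK98 libraries were the highest of the 4 treatments. Resting libraries of the experiment held 19.9 and 26.2 TPM of Mrps26 and 26.0 and 26.4 of Mrpl58. Mrps11, a small subunit protein with a bacterial counterpart, went from 3.99 TPM to 12.6 and 10.3 with ACBI1 (1.07 ± 0.21, adjusted p = 0.00247). Mrps18b went from 0.687 TPM to 7.27 and 4.92 with BRM014 (1.81 ± 0.36, adjusted p = 0.00229), a low gene whose libraries lie far apart.

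Mrps6, a small subunit protein with a bacterial counterpart, rose with all 3 compounds, from 9.26 TPM to 38.5 and 32.4 with ACBI1 (1.55 ± 0.13, adjusted p = 1.61e-05), 37.4 and 42.8 with BRM014 (1.54 ± 0.13, adjusted p = 6.66e-06) and 38.3 and 37.0 with BRDK98. These levels also exceed the resting ones of 16.7 and 16.6 TPM. On the same strand, 36.0% of the exon sequence of Mrps6 is shared with Gm49711, which the tables do not list, and 18.8% with Slc5a3, a myo-inositol transporter gene. Slc5a3 was at 0.082 TPM in the control, 1.498 and 1.479 with ACBI1, 3.28 and 4.01 with BRM014 and 0.602 and 0.453 with BRDK98. The part of either gene in the value of Mrps6 was not tested.

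Mrpl39 set the compounds apart. It was at 147 and 143 TPM with BRM014 against 26.6 in the control (1.92 ± 0.13, adjusted p = 1.32e-06), 46.1 and 39.6 with ACBI1 and 28.4 and 24.9 with BRDK98. BRM014 exceeded ACBI1 by 1.55 ± 0.11 (adjusted p = 2.47e-06), and BRDK98 lay below BRM014 by 2.48 (log2 difference -2.48 ± 0.11, adjusted p = 6.46e-08). Its neighbour Mir155hg went the other way: it was at 245 TPM in the control, 133 and 109 with ACBI1, 114 and 98.7 with BRM014 and 102 and 87.8 with BRDK98.

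Mrpl52 fell with 2 of the compounds. It was at 165 TPM in the control, 151 and 160 with ACBI1, 56.2 and 49.0 with BRM014 (-2.13 ± 0.19, adjusted p = 1.15e-05) and 32.4 and 21.3 with BRDK98 (-3.17 ± 0.19, adjusted p = 1.18e-06). The BRM014 and BRDK98 libraries also lay below the resting level of 74.0 and 73.3 TPM. Mmp14 was at 162 TPM in the control, 60.6 and 67.4 with ACBI1, 2.94 and 3.37 with BRM014 and 2.85 and 2.57 with BRDK98, low in the same libraries. Mrpl18, a large subunit protein that binds 5S ribosomal RNA in bacteria, fell with ACBI1 (23.7 to 17.8 and 16.0 TPM) and with BRM014 (both 16.8), and was at 27.8 and 24.7 with BRDK98. Mrpl13 was at 64.6 TPM in the control, 45.6 and 50.9 with BRM014, where it fell (a call lost without the first BRM014 library), and 125 and 133 with BRDK98. BRDK98 and BRM014 differed for Mrpl13 by 1.32 ± 0.11 (adjusted p = 4.56e-06). Mrpl13 shares 27.0% of its exon sequence with Mtbp on the opposite strand.

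**Figure D4:**
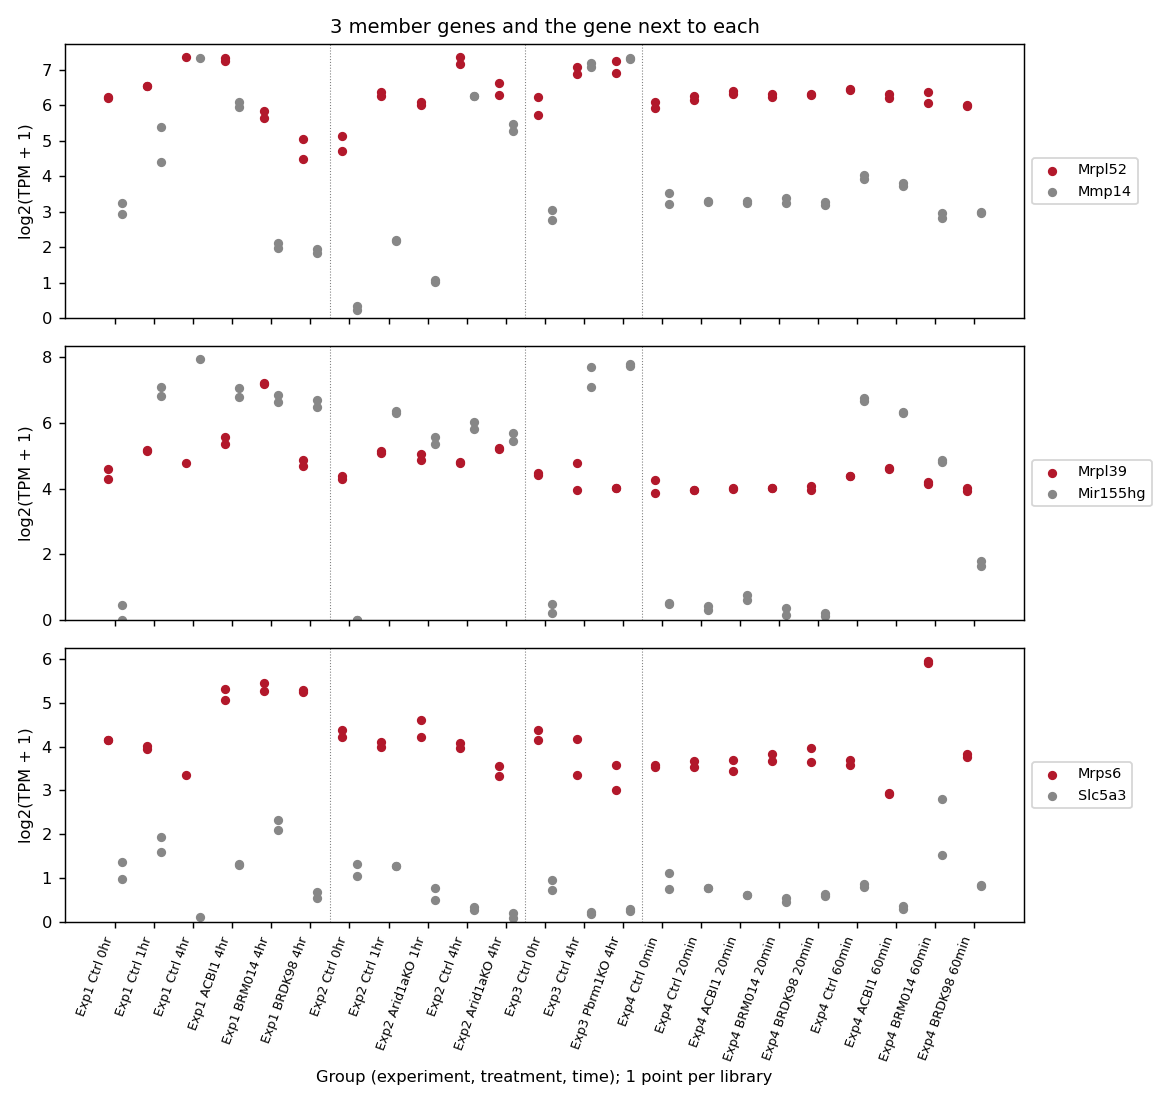
log2(TPM + 1), as deposited, of 3 member genes (red) and the gene next to each (grey) in every library, by group, 1 point per library. Mrpl52 and Mmp14 are both low with BRM014 and BRDK98 at 4 hr in experiment 1; Mrpl39 is highest with BRM014 at 4 hr (147 and 143 TPM), where Mir155hg is not (114 and 98.7).

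Compounds of a pair can be compared without the control. At 4 hr BRM014 exceeded ACBI1 in 18 members and lay below it in 2 (17.5% and 14.1% of all tested genes), and BRDK98 exceeded ACBI1 in 17 and lay below it in 3 (21.6% and 15.4%). BRDK98 exceeded BRM014 in 13 members and lay below it in 11 (22.7% and 22.1%). Without the first BRM014 library BRM014 and ACBI1 differed in 12 members, and in 13 without the second or without the first ACBI1 library. BRDK98 and BRM014 differed in 15 without the first BRDK98 library. Mrps18c was higher with BRDK98 (72.6 and 79.5 TPM) than with BRM014 (32.8 and 32.3; 1.12 ± 0.11, adjusted p = 1.39e-05). Mrpl42, a large subunit protein without a bacterial counterpart, was higher with BRM014 (30.5 and 31.7 TPM) than with ACBI1 (12.87 and 14.99; 0.93 ± 0.12, adjusted p = 0.000159).

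Experiment 4 asked about early times. At 20 min limma called no member with any of the compounds; the shares of all tested genes called higher were 0.0866% for ACBI1, 0.0606% for BRM014 and 0.502% for BRDK98, and those called lower 0.0606%, 0.329% and 0.849%. Unadjusted p-values below 0.05 on both scales numbered 1, 11 and 17 of 77 members. These counts were not set against the share of all tested genes at that threshold, so no response of the family is read from them. At 60 min BRM014 raised 39 of 77 members and lowered none (16.9% and 13.5% of all tested genes), with a median of 0.33 against 0.01 for all genes. The share was 50.6%; of 71 cytosolic ribosome proteins 19 rose and of 79 oxidative phosphorylation subunits 16. The summed TPM was 1957 and 1601 with BRM014 against 1356 and 1375, so both libraries exceeded both controls but differed from each other. Without the first BRM014 library 19 members were called, 18 of them higher, and without the second 65. Without control replicate 1 the count was 22 and without control replicate 2 it was 19.

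ACBI1 at 60 min raised 1 member, Mrpl44, and lowered 3, Mrps6, Mrps28 and Mrpl9 (11.6% and 14.5% of all tested genes), and BRDK98 raised Mrpl16 and lowered Mrpl39 and Mrpl52 (6.04% and 5.56%). Without the second control library, or the second ACBI1 library, 1 call was left for ACBI1, and 2 without the first ACBI1 library. For BRDK98 no call was left without the first control library and 1 without any of the other 3. BRM014 exceeded ACBI1 in 38 members and lay below it in 1 (29.1% and 19.6%), and BRDK98 lay below BRM014 in 29 and above it in 1 (12.4% and 14.5%). Without the first BRM014 library these comparisons kept 24 and 14 calls in all, and without the second they gave 59 and 57. BRDK98 exceeded ACBI1 in 8 members and lay below it in 3 (21.5% and 14.3%), with 3 calls left without the first BRDK98 library and 6 without the second ACBI1 library. Without the first BRDK98 library BRDK98 and BRM014 differed in 16 members, and without the second in 15. The members' median with BRDK98 at 60 min was 0.01, while at 4 hr in experiment 1 it raised 37 members; the 2 times come from different experiments and their difference was not tested.

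Mrps6 showed the largest change at 60 min. It was at 11.0 and 11.9 TPM in controls, 58.4 and 60.9 with BRM014 (2.26 ± 0.12, adjusted p = 6.28e-09), 6.50 and 6.72 with ACBI1 (-0.56 ± 0.12, adjusted p = 0.00236) and 13.1 and 12.7 with BRDK98. Both BRM014 libraries lay far above both controls for this gene. Slc5a3 was at 0.752 and 0.833 TPM in controls, 1.88 and 5.94 with BRM014 and 0.236 and 0.283 with ACBI1. Mrps6 with ACBI1 was thus below its control at 60 min and, in the other experiment, above it at 4 hr. Mrps26 was at 15.7 and 16.0 TPM in controls, 33.2 and 32.4 with BRM014 (0.98 ± 0.12, adjusted p = 3.59e-05) and 20.5 and 19.7 with BRDK98. Mrpl57, a large subunit protein without a bacterial counterpart, was at 5.20 and 4.76 TPM in controls and 9.09 and 8.51 with BRM014 (0.69 ± 0.11, adjusted p = 0.000210). For these 3 genes both BRM014 libraries exceeded both controls. Mrpl52 was at 62.5 and 63.0 TPM with BRDK98 against 87.6 and 85.3 (-0.54 ± 0.12, adjusted p = 0.00712), with Mmp14 at 6.98 and 6.86 against 14.1 and 15.4. Mrpl39 was at 15.4 and 14.1 TPM with BRDK98 against 19.7 and 19.7 (-0.48 ± 0.10, adjusted p = 0.00336), with Mir155hg at 2.141 and 2.503 against 101 and 108.

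Within experiment 4 the change between 20 and 60 min could be tested. The effect of BRM014 was higher at 60 min in 7 members and lower in none (6.94% and 6.42% of all tested genes), that of ACBI1 higher in none and lower in 2 (9.37% and 9.59%), and that of BRDK98 higher in none and lower in 1 (3.56% and 3.09%). Leaving out single libraries gave 1 to 37 calls for BRM014, the highest without the second BRM014 library at 60 min and the lowest without the second at 20 min; it left 0 or 1 for ACBI1 and 0 for BRDK98.

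The experiments with BRM014 at 60 min and at 4 hr share no library, and 22 members rose in both. They were 56.4% of the members that rose at 60 min, against 50.0% of all 76 members that rose at 4 hr. Over the 10865 genes tested in both, 45.3% of those that rose at 60 min rose at 4 hr. The 22 included Mrps6, Mrps26, Mrpl44, Mrpl49 and Mrps2. Across 76 members the changes at the 2 times correlated weakly (r = 0.26, Spearman 0.16; across 10865 genes r = 0.28).

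Loss of Arid1a at 1 hr of LPS raised 27 of 76 members and lowered 1 (18.4% and 16.8% of all tested genes), with a median of 0.24 against -0.03 for all genes. The share that rose was 35.5%; only 1 of 73 cytosolic ribosome proteins and 6 of 80 oxidative phosphorylation subunits rose. The summed TPM was 2994 and 2467 in Arid1a-/- against 2244 and 2263 in controls on deposited values, and 2663 and 2102 against 2042 and 2069 after scaling, so the second Arid1a-/- library lay close to the controls. Without the first Arid1a-/- library 15 members were called, 13 of them higher, and without the second 43. Without control replicate 1 the count was 13 and without control replicate 2 it was 12. The first library also had the lower Arid1a level.

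Mrps18b was at 12.04 and 16.0 TPM in Arid1a-/- against 5.53 and 5.98 at 1 hr (1.07 ± 0.16, adjusted p = 0.000593), and Mrps10, a small subunit protein with a bacterial counterpart, at 11.3 and 13.8 against 6.91 and 5.68 (0.83 ± 0.14, adjusted p = 0.00136). For both the second library, not the first, was the higher. Mrpl12 was at 82.9 and 64.5 TPM against 40.5 and 42.7 (0.73 ± 0.14, adjusted p = 0.00293). Mrpl44 and Mrpl49, which fall at 1 hr in controls, were higher in Arid1a-/- at that time (Mrpl49 at 24.2 and 18.1 TPM against 12.4 and 12.6). Mrpl9 was the member that fell, by 0.35 on the log2 scale (-0.35 ± 0.11, adjusted p = 0.03003), a call lost without either control library or the second Arid1a-/- library. Of the 27 members that rose, 18 (66.7%) also rose with BRM014 at 60 min, where they were 46.2% of the risers. With BRM014 50.6% of all tested members rose, and over all genes 26.4% of those that rose with Arid1a loss also rose with BRM014; these are the comparisons with the 2 uneven library pairs.

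At 4 hr of LPS Arid1a loss raised 10 of 76 members and lowered 2 (14.1% and 10.8% of all tested genes), a share of 13.2% higher. Mrpl42 went from 13.7 and 13.7 TPM to 29.9 and 33.1 (1.06 ± 0.14, adjusted p = 0.000378). Mrps28, a small subunit protein, changed by 0.74 ± 0.20 (adjusted p = 0.0179), and Mrpl40, a large subunit protein, by 0.70 ± 0.10 (adjusted p = 0.000621). Mrpl52 fell from 142 and 163 to 76.8 and 98.0 TPM (-0.90 ± 0.15, adjusted p = 0.00174), beside Mmp14 at 75.6 and 75.9 in controls and 37.7 and 43.1 in Arid1a-/-. Mrps6 fell from 15.8 and 14.5 to 8.97 and 10.8 TPM (-0.68 ± 0.15, adjusted p = 0.00701). Without the first control library, or the second Arid1a-/- library, 6 calls were left, and without the second control library 7. The calls of Mrps6 and Mrps28 were among those lost in such fits. The Arid1a effect differed between 4 and 1 hr in 8 members by the interaction term, 2 with a higher effect at 4 hr and 6 with a lower one (8.08% and 8.09% of all tested genes); there were 18 without the second Arid1a-/- library at 1 hr and 1 without the second control library at 1 hr.

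Loss of Pbrm1 at 4 hr of lipid A changed no member in limma's fit (0.00% of all tested genes called higher and 0.00905% lower), with no member at an unadjusted p below 0.05 on both scales and none called with voom. Leaving out control replicate 1 gave 2 calls. The members' median change was 0.02, and -0.12 on deposited TPM, and their summed TPM was 1138 and 1125 against 1075 and 1339. In the authors' deposited table of this comparison no member had an adjusted p below 0.05 (0.00408% of all listed genes were higher and 0.0408% lower). The fit of this experiment had 3 residual degrees of freedom, which limits the changes it can detect.

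**Figure D5:**
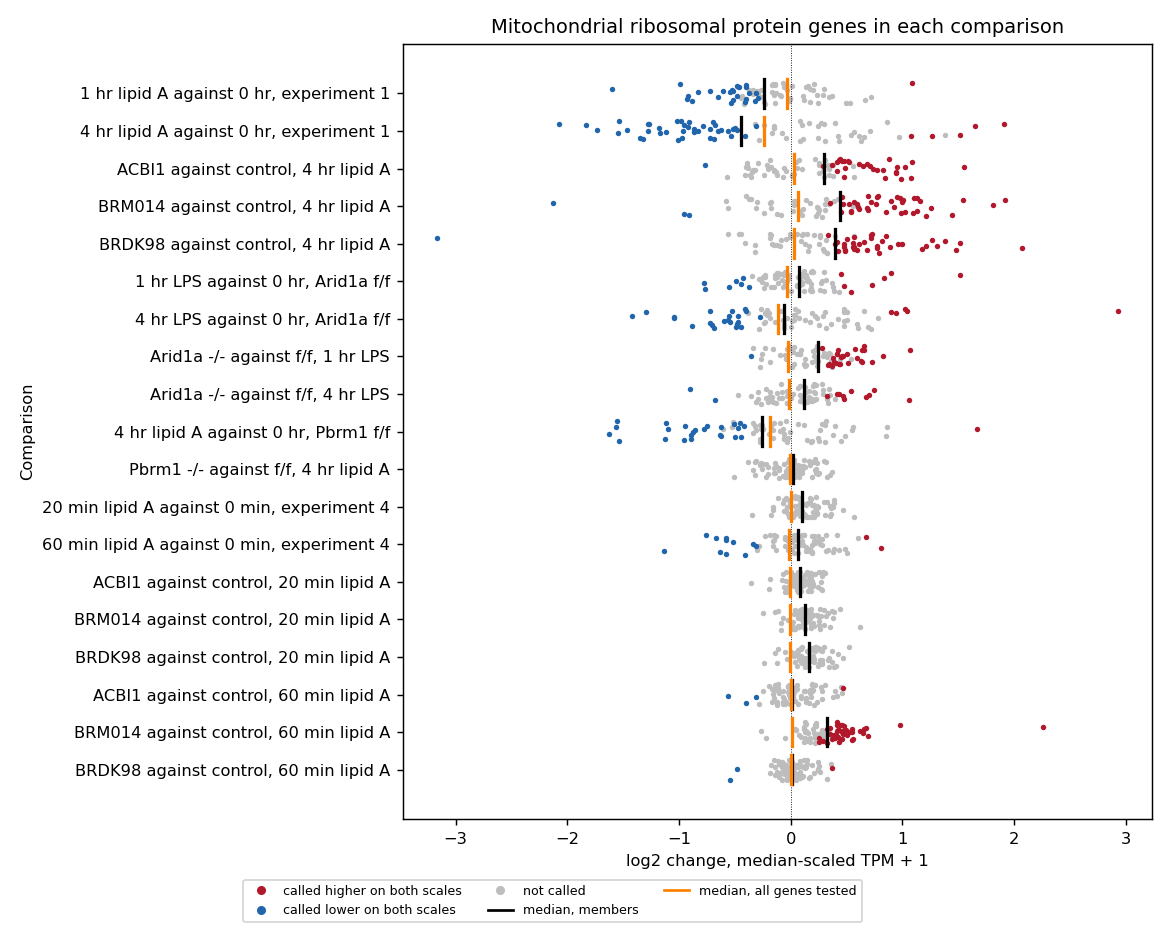
Log2 change (median-scaled TPM + 1) of each tested member in 19 comparisons; red and blue points were called higher or lower on both scales, grey points were not, and black and orange ticks are the medians of the members and of all tested genes. Members sit to the right of the all-gene median with the compounds at 4 hr and with BRM014 at 60 min (0.33 against 0.01), and no point is coloured for Pbrm1 loss or at 20 min.

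Other genes of mitochondrial translation were counted from lists grouped by function, which were chosen with earlier results of these data known. At 4 hr of stimulation 18 of 19 mitochondrial aminoacyl-tRNA synthetase genes fell in experiment 1, 16 of 20 in Arid1a f/f cells and 15 of 19 in Pbrm1 f/f cells, and none rose (43.2%, 39.0% and 37.0% of all tested genes fell). Cars2, the cysteine enzyme, changed by -1.84, -1.43 and -1.17 in these experiments. Of the factors for ribosome assembly and rRNA modification 18 of 24, 14 of 24 and 13 of 23 fell and none rose, led by Rbfa, a small subunit maturation factor (-3.22, -2.33 and -2.88), and with Mrm1, an rRNA methyltransferase, at -2.09, -1.76 and -1.63. Of 14 translation factors 8, 9 and 8 fell and 0, 1 and 0 rose. Of 6 mitoribosome proteins with other names 3, 2 and 1 fell and none rose, shares below those of all genes in the f/f cells; Oxa1l, the inner membrane insertase counted with them, fell in all 3 (-1.94, -0.87 and -0.77). Polrmt, the mitochondrial RNA polymerase, fell in all 3 (-1.72, -1.05 and -1.05).

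The list of regulators moved differently: of 10 genes 4, 6 and 4 rose and 1, 2 and 1 fell (20.1%, 17.9% and 16.0% of all tested genes rose). Max, a partner of Myc, changed by 3.09, 1.97 and 2.04, and Gabpb1, a GABP subunit, by 1.76, 1.26 and 1.40. With BRM014 at 4 hr 18 of 24 assembly factors and 14 of 19 synthetases rose; with BRDK98 13 and 10, and with ACBI1 9 and 8 (29.3%, 24.7% and 22.3% of all tested genes rose). Dhx30, an RNA helicase of mitoribosome assembly, changed by 1.82 with BRM014, 1.56 with BRDK98 and 1.41 with ACBI1. Tfb1m, an rRNA dimethyltransferase, went down with BRM014 (-1.61) and ACBI1 (-1.33). Of the 10 regulators 2, 0 and 2 rose and 3, 2 and 2 fell with BRM014, BRDK98 and ACBI1.

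In the authors' deposited table of each comparison, made with DESeq2, members with an adjusted p below 0.05 were also counted, here over all 78 members and beside the shares of all listed genes. For 4 hr of lipid A in experiment 1 the authors' deposited table has 19 members higher and 20 lower (17.2% and 15.0% of listed genes), and for 4 hr of LPS in Arid1a f/f cells 18 higher and 11 lower (16.2% and 14.0%), so there more members were higher than lower, unlike in limma's fit. For 4 hr in Pbrm1 f/f cells the authors' deposited table has 8 higher and 12 lower (14.3% and 11.5%), and for 1 hr of LPS 10 higher and 5 lower (9.75% and 9.88%). For BRM014 at 4 hr the authors' deposited table has 24 higher and 4 lower (10.3% and 13.7%), for BRDK98 27 and 3 (9.72% and 13.7%), and for ACBI1 13 and 4 (8.53% and 11.4%). For BRM014 at 60 min the authors' deposited table has 2 members higher and none lower (1.75% and 2.96%), and for Arid1a loss at 1 hr 8 higher and none lower (5.41% and 5.24%). For ACBI1 at 60 min the authors' deposited table has 3 higher and none lower (7.99% and 5.09%), the opposite balance to limma's, and for BRDK98 at 20 min 6 higher and none lower (0.784% and 2.09%), where limma called none. Many listed genes are not expressed, so these shares are not comparable with those of tested genes.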

How the data were processed

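Mouse macrophage RNA was measured by 50 bp single-end sequencing of stranded polyA libraries, per the labels' protocols. The submitters' processing notes name STAR 2.5.3a and the mm10 build. The authors' deposited TPM were made with HOMER from exon reads of both strands, per the file headers, so sense and antisense reads cannot be told apart. The authors' deposited log2 fold changes and adjusted p-values came from DESeq2, per the submitters' processing notes; they are quoted only where named. No table of raw counts was used. Low TPM were whole multiples of 1 read (100% within 0.1 read), so reads were recovered for an alternative fit with limma's voom.

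From TPM, limma 3.58.1 in R 4.3.3 was fitted to log2(TPM + 1), with trended and robust moderation, over all groups of an experiment, on genes at 1 TPM or more in 2 libraries. It was run on deposited and on median-ratio-scaled TPM, with Benjamini-Hochberg adjustment within each comparison. A call needed an adjusted p below 0.05 and the same sign in both. The scripts were tested on simulated data. The 1 repeated control column was left out. Exonic reads per library (7015041 to 27527067) make 3 reads on a 2 kb transcript equal to 0.0654 to 0.298 TPM, which covers counting error only.

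The members and gene lists were chosen with earlier results of these data known. Named members are, per comparison, the 3 highest and 3 lowest called at 5 TPM or more, up to 3 against the direction of most, the Mrps18 paralogs, Mrpl12, Mrps30, Mrps36 and untested members, and up to 2 called genes of each list at 4 hr; others were named after their values were seen. Alternatives were each scale alone, a pseudocount of 0.1, no filter, no trended or robust moderation, a replicate block, voom, and leaving out each library.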

Additional observations from a re-analysis of the deposited data

Results flagged for a closer look

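Effects that differed between times, by the interaction term of limma's fit on both scales, are given as the later effect minus the earlier one on the median-scaled log2 scale. The effect of Arid1a loss was lower at 4 hr than at 1 hr of LPS for Mrps6 (-0.97), Mrps10 (-0.74), Mrps27 (-0.68), Mrpl12 (-0.66), Mrps2 (-0.66) and Mrps23 (-0.55). It was higher at 4 hr for Mrpl42 (0.88) and Mrpl39 (0.55). The 1 hr libraries carry the polyA RNA label and include the uneven Arid1a-/- pair; without single libraries the number of such members ran from 1 to 18.

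In experiment 4 the effect of BRM014 was higher at 60 than at 20 min for Mrps6 (2.08), Mrps26 (0.63), Mrps34 (0.62), Mrpl57 (0.59), Mrpl49 (0.49), Mrpl32 (0.49) and Mrps30 (0.44), against 6.94% of all tested genes; the number ran from 1 to 37 without single libraries. The effect of ACBI1 was lower at 60 min for Mrps6 (-0.55) and Mrpl9 (-0.42), against 9.59% of all tested genes. The effect of BRDK98 was lower at 60 min for Mrpl52 (-0.64), against 3.09%. For ACBI1 1 call at most and for BRDK98 0 calls were left without single libraries.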

How the results depend on the processing

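Depth, 2 libraries a group and a single 4 hr control in experiment 1 limit these counts, as does the choice of scale. All counts here are members called. On deposited TPM alone they were 57 at 1 hr and 63 for BRDK98 at 4 hr in experiment 1, 56 at 4 hr of LPS, 20 for Arid1a loss at 4 hr, 59 at 4 hr in Pbrm1 f/f, 45 at 60 min, 1 for BRDK98 at 20 min, 15 for ACBI1 and 6 for BRDK98 at 60 min, and 10 (ACBI1) and 13 (BRM014) between 60 and 20 min. Between compounds they were 31 (BRM014 against ACBI1) and 46 (BRDK98 against ACBI1) at 4 hr, and 60 and 35 at 60 min. On median-scaled TPM alone they were 41 at 4 hr of LPS, 20 at 60 min, 8 for ACBI1 at 60 min and 3 for BRDK98 between 60 and 20 min. With no filter they were 9 at 1 hr of LPS, 4 for Arid1a loss between times, and 0 for ACBI1 and 0 for BRDK98 between 60 and 20 min. With voom on recovered reads they were 13 for ACBI1 and 21 for BRDK98 at 4 hr, 1 for BRDK98 at 20 min, 8 for ACBI1 at 60 min, 5 for Arid1a loss between times and 2 for BRDK98 between 60 and 20 min. The cause of these shifts was not tested.

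Leaving out 1 library gave 19 to 27 at 1 hr and 42 to 45 at 4 hr in experiment 1, and 23 to 24 (ACBI1), 36 to 36 (BRM014) and 30 to 32 (BRDK98) with compounds at 4 hr. It gave 7 to 10 at 1 hr and 20 to 25 at 4 hr of LPS, 12 to 43 and 6 to 9 for Arid1a loss at 1 and 4 hr, and 1 to 18 between them. It gave 14 to 28 at 4 hr in Pbrm1 f/f and 0 to 2 for Pbrm1 loss. In experiment 4 it gave 0 to 1 at 20 min and 10 to 12 at 60 min, 0 to 0 for each compound at 20 min, 1 to 3 (ACBI1), 19 to 65 (BRM014) and 0 to 1 (BRDK98) at 60 min, and 0 to 1, 1 to 37 and 0 to 0 between the times. Between compounds it gave 12 to 15 (BRM014 against ACBI1), 14 to 16 (BRDK98 against ACBI1) and 15 to 19 (BRDK98 against BRM014) at 4 hr, and 24 to 59, 3 to 9 and 14 to 57 at 60 min. The single 4 hr control of experiment 1 was never left out. For 4 hr of lipid A and each compound against that control, the ranges therefore do not cover a deviation of this library. Their narrowness is no measure of stability.

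Deviations of same-numbered libraries had a median r of 0.02, 0.02, 0.17 and -0.01 in experiments 1 to 4. In experiment 3 they leaned together (r from 0.01 to 0.22), but in no experiment was every pair above 0.1, so the numbers were not taken as pairing; with the replicate block 1 member was called for BRDK98 at 20 min. No named member reversed, but its call was lost in 100 of 428 values without single libraries, in 9 of 106 with no filter and in 4 of 106 with voom.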
